A study of Homo sapiens with 12 samples.

Results

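Cytosolic nucleic acid sensing was followed across 4 treatments of MOLM-13 cells through 9 genes, chosen by symbol with earlier results of these data known. They are DDX58, IFIH1 and DHX58 (the RIG-I-like RNA sensors), MAVS (their adaptor), EIF2AK2 and ADAR (enzymes that bind double-stranded RNA), CGAS (a DNA sensor), and TBK1 and IRF3 (the kinase and the transcription factor below the sensors). All 9 were found among the 46639 gene symbols of the deposited table, where they held 40 of 100502 transcript rows. All 9 also passed the filter on low values, set at 10 or more normalised counts in 3 or more libraries.

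MOLM-13 is a human acute myeloid leukemia cell line with a fusion of the MLL gene, grown here in medium with fetal calf serum and GM-CSF. The study's methods list the serum but do not mention GM-CSF. The groups were untreated cells, cells given decitabine at 100 nM (DAC, which traps DNA methyltransferases), cells given all-trans retinoic acid at 1 µM (ATRA, the ligand of the retinoic acid receptors) and cells given both agents (DAC+ATRA), each with 3 RNA-seq libraries. The labels give 96 h for untreated libraries and 72 h for all treated ones. The study's methods instead name 1 harvest time, that of the treated libraries, and describe a later addition and shorter exposure for ATRA than the labels do. If the labels hold, time and treatment cannot be told apart in comparisons with untreated cells. The interaction of DAC with ATRA uses those cells too, so the same holds for it. The libraries are technical triplicates by their labels, so every p-value below measures the spread within 1 experiment, and no vehicle control was among the libraries.

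RIG-I and MDA5, the products of DDX58 and IFIH1, detect RNA of unusual structure in the cytosol, and LGP2, the product of DHX58, tunes them. RIG-I and MDA5 signal through MAVS on mitochondria, and cGAS reports cytosolic DNA through STING. Both routes meet at TBK1, which phosphorylates IRF3 and so switches on interferon genes. Loss of DNA methylation can release transcription of endogenous retroviruses, whose double-stranded RNA can engage these sensors. This is known as viral mimicry, and it is the question that the comparison of DAC with untreated cells bears on.

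The libraries held 4.67 to 11.9 M reads (M stands for mega), and the 6 with DAC held at most 7.16 M where the other 6 held at least 8.36 M. The 9 genes together held between 803 and 3047 reads of a library. All 9 markers of the myeloid line were detected in every group, and their summed level was 52286 to 64674 normalised counts in untreated, 168335 to 212982 in DAC, 15903 to 21864 in ATRA and 59195 to 62492 in DAC+ATRA libraries. That sum was mostly LYZ except in ATRA libraries, where LYZ was at 6819 ± 2250 and FLT3 at 8243 ± 666 (SD, n = 3). The markers did not move together: with DAC, LYZ and MPO rose while FLT3 and HOXA9 fell (-0.77 and -0.63 on the log2 scale, limma adjusted p 4.43e-05 and 0.00155). Of 7 markers of other cell types, 4 were at 0 in each group, MS4A1 among them in all 4 groups. The summed level of those 7 was 3591 to 4569 in untreated, 5530 to 6175 in DAC, 1477 to 1597 in ATRA and 1814 to 2188 in DAC+ATRA libraries, nearly all of it PECAM1. COL1A1 went from 8.03 ± 2.93 normalised counts untreated (SD, n = 3) to 21.2 ± 3.13 with DAC, 79.0 ± 12.5 with ATRA and 48.6 ± 9.50 with DAC+ATRA, and was called higher with each (limma adjusted p 0.00437, 7.52e-08 and 2.05e-06). The part of these shifts in the results below was not tested. In bulk RNA, fewer cells of a kind and less RNA per cell cannot be told apart.

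DAC lowered 3 of the 9 genes and raised none at an adjusted p under 0.01 (limma). CGAS, DHX58 and EIF2AK2 fell, while 7.97% of all 10642 genes tested were called in that comparison and 3.67% were called lower. ATRA raised DDX58 and lowered CGAS, against 26.0% of all genes called. DAC+ATRA lowered CGAS, against 28.9% of all genes called and 14.4% called lower. The called counts with ATRA (2 of 9) and with DAC+ATRA (1 of 9) did not exceed the share over all genes. The genes called with DAC are the DNA sensor, a regulator of the RNA sensors and a kinase, and none of the 9 was called higher with DAC.

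**Figure D1:**
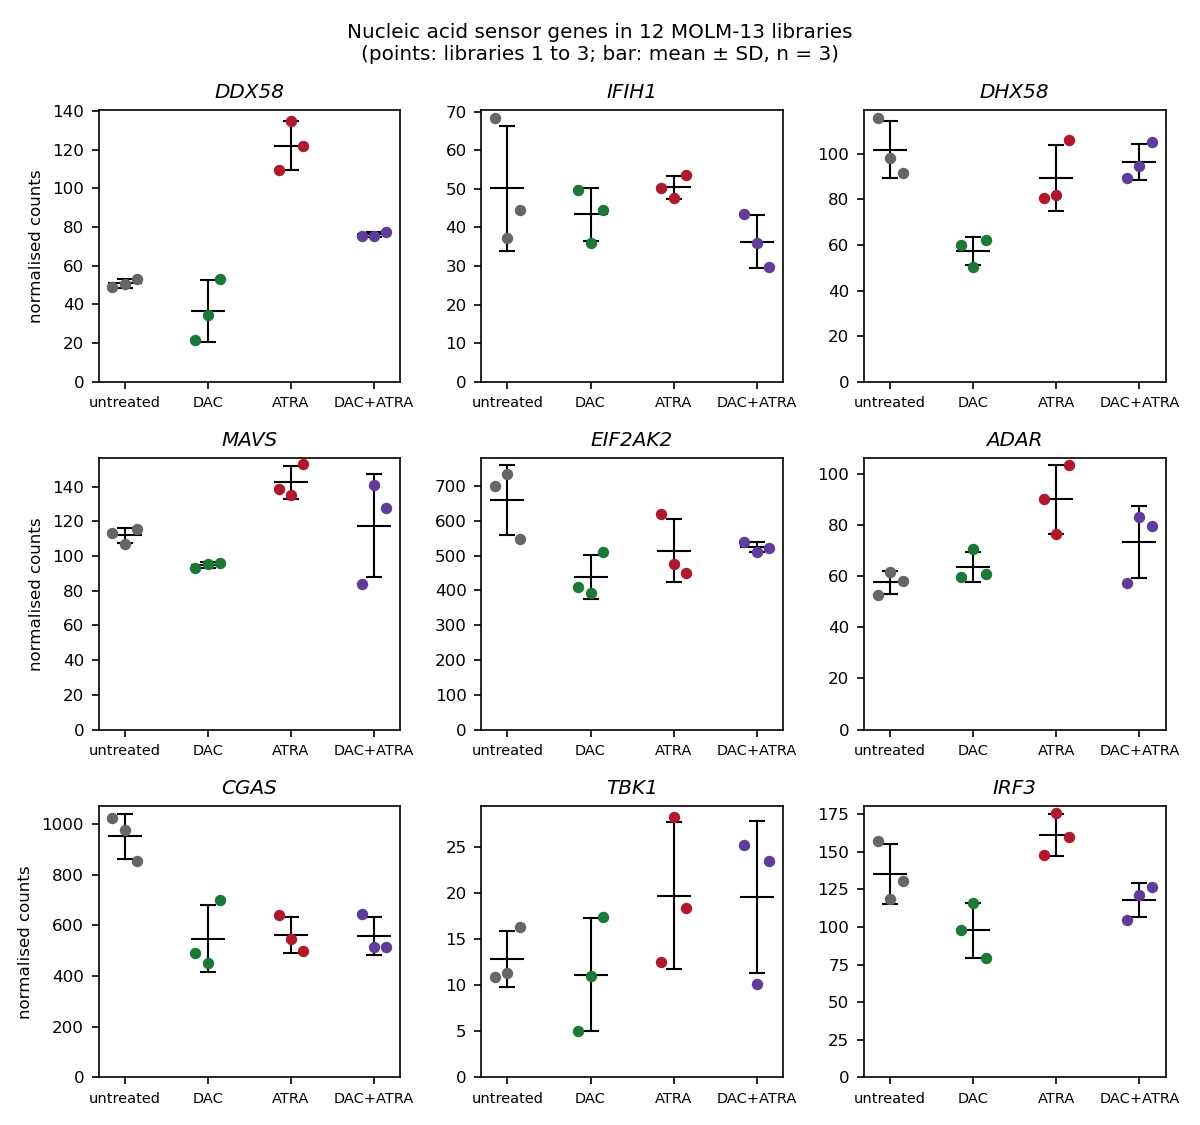
Normalised counts (vertical axis, from 0) of the 9 sensor genes in the 12 libraries, by treatment (horizontal axis), with points for libraries 1 to 3 and bars for the mean ± SD (n = 3). DDX58 was highest in the 3 ATRA libraries (109 to 135), DHX58 lowest in the 3 DAC libraries (50.2 to 62.0), and CGAS was lower in all 9 treated libraries (453 to 699) than in the 3 untreated ones (855 to 1026).

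DDX58, which encodes RIG-I, lies on the minus strand at chr9:32455302-32526208 (GRCh38, where GENCODE names it RIGI). Its normalised counts were 49.0, 50.3 and 53.3 in untreated libraries 1 to 3, 21.6, 34.5 and 53.3 with DAC, 109, 135 and 122 with ATRA, and 75.6, 75.4 and 77.6 with DAC+ATRA. All ATRA libraries lay above all DAC+ATRA libraries, and those above all untreated ones. The DAC libraries were spread widest and reached into the untreated range. Means were 50.9 ± 2.21 (SD, n = 3) untreated, 36.5 ± 15.9 with DAC, 122 ± 12.7 with ATRA and 76.2 ± 1.21 with DAC+ATRA.

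Among the cells that received DAC, adding ATRA raised DDX58 by 1.13 on the log2 scale (SE 0.25, limma adjusted p 0.00197), or 2.19-fold. A fit of the 6 DAC+ATRA and DAC libraries alone did not call DDX58 (limma adjusted p 0.0158). This comparison shares no library with that of ATRA against untreated cells, where the change was 1.24 (SE 0.25, limma adjusted p 6.23e-04). The ATRA libraries exceeded the DAC libraries by 1.80 (SE 0.25, limma adjusted p 1.06e-05), which was the largest difference among the 63 fits of a sensor gene in a comparison. Against ATRA alone DDX58 was at -0.67 with DAC+ATRA (95% interval -1.19 to -0.14, limma adjusted p 0.0678), and against untreated at 0.57 (interval 0.05 to 1.10, limma adjusted p 0.0778). Neither passed the threshold, although in both the groups did not overlap. With DAC alone it was at -0.56 (limma adjusted p 0.149). Without DAC replicate 3, which lay at 53.3, that change was -0.87 (limma adjusted p 0.00827) and passed.

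IFIH1 encodes MDA5, which binds long double-stranded RNA, and lies on the minus strand at chr2:162267074-162318684. It was measured at 68.4, 37.3 and 44.5 normalised counts untreated, 49.6, 36.1 and 44.6 with DAC, 50.2, 47.6 and 53.5 with ATRA, and 43.4, 36.0 and 29.6 with DAC+ATRA. The untreated libraries were spread wider than those of any treated group, and reached past all of them in replicate 1. No comparison of IFIH1 passed the threshold, and the estimates ran from -0.48 for DAC+ATRA against ATRA (95% interval -1.02 to 0.06) to 0.22 for ATRA against DAC (interval -0.32 to 0.76). For DAC against untreated the interval was -0.71 to 0.37. IFIH1 held 23 to 88 reads per library. The interval gives the range of changes compatible with these libraries, not the smallest change that could have been called.

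DHX58 encodes LGP2, which has no signalling domain of its own, and lies at chr17:42101404-42112714. Its libraries held 116, 98.2 and 91.6 normalised counts untreated, 59.8, 50.2 and 62.0 with DAC, 80.6, 81.9 and 106 with ATRA, and 89.6, 94.6 and 105 with DAC+ATRA. All 3 DAC libraries lay below the other 9, and the remaining groups overlapped. DHX58 fell with DAC by 0.82 on the log2 scale (SE 0.19, limma adjusted p 0.00557), from 102 ± 12.6 to 57.3 ± 6.30. With ATRA added to DAC it was higher by 0.74 (SE 0.19, limma adjusted p 0.00542), at 96.4 ± 7.96. These 2 comparisons share the DAC libraries and are not independent.

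The fall of DHX58 with DAC was no longer called without untreated replicate 1, 2 or 3 (limma adjusted p 0.0382, 0.0216 and 0.0117) or without DAC replicate 1 or 2 (0.0109 and 0.0275). The rise of DHX58 in DAC+ATRA against DAC was likewise lost without DAC replicate 2 (0.0262) or DAC+ATRA replicate 1, 2 or 3 (0.011, 0.0182 and 0.0317). The log2 change stayed between -0.89 and -0.72 for the former and between 0.65 and 0.80 for the latter over 24 alternative fits. The interaction, that is, how far the DAC effect in the presence of ATRA exceeded that in its absence, was 0.93 for DHX58 (95% interval 0.37 to 1.49, limma adjusted p 0.0616) and did not pass.

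The starts of DDX58 and IFIH1 are shown because both genes are known targets of interferon. Sequences are 250 bases upstream of the start in RefSeq (GRCh38.p14), read 5′ to 3′ on the strand of the gene, and 6 of the 9 genes were matched. The interferon-stimulated response element (ISRE) core was searched on both strands as GAAA, any 2 bases and GAAA, and capitals mark its matches in IFIH1 (chr2:162318685-162318934). In DDX58 (chr9:32526197-32526446) capitals mark the only match of GAAA, any 1 base and GAAA, a shorter spacing that was chosen after the sequences were seen.
DDX58: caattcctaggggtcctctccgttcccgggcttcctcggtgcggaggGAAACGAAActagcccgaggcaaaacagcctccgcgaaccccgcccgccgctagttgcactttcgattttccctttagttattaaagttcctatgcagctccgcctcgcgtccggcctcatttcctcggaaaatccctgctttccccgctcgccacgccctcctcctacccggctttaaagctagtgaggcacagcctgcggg
IFIH1: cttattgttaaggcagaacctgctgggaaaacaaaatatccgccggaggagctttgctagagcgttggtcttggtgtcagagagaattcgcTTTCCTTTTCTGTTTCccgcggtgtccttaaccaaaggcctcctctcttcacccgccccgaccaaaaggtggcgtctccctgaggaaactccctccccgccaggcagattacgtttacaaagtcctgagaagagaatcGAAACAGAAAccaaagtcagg

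IFIH1 held 3 ISRE matches, which began 159, 153 and 21 bases before the start, and the pair farther from the start overlap each other. Such a match was present in 3.02% of 35114 promoters of the same length. IFIH1 was not called in any comparison, and whether a match bears on expression was not tested. DDX58, which rose with ATRA, held no ISRE match, and its shorter-spaced match began 203 bases before the start (2.69% of promoters hold one). MAVS, EIF2AK2, ADAR and TBK1 held neither of these in that window, and none of the 6 held the GAS element TTC, any 3 bases and GAA (6.57% of promoters). DDX58 had 22 CpG dinucleotides in the window, EIF2AK2 22, MAVS 28, TBK1 27, IFIH1 12 and ADAR 12, where the median of all promoters was 11.

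In EIF2AK2, 1 ISRE match spans the start itself, with 6 bases before it and 4 after, and was found only when the search was widened to 50 bases past the start, a choice made after seeing the sequences. In that wider window 3.57% of promoters hold a match, and no match was seen at the 3 listed starts of ADAR. It is shown in capitals within 20 bases before and 10 after the start (chr2:37156971-37157000, minus strand).
EIF2AK2: gcggagtccaagggGAAAACGAAActgaga

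MAVS, the adaptor of the RNA sensors on the mitochondrial membrane, lies at chr20:3846799-3876123. The libraries held 114, 107 and 115 normalised counts of MAVS untreated, 92.9, 95.7 and 95.8 with DAC, 139, 135 and 153 with ATRA, and 84.0, 141 and 128 with DAC+ATRA. DAC libraries lay below and ATRA libraries above all untreated ones, and DAC+ATRA libraries reached from below all DAC libraries into the ATRA range. MAVS was not called in any comparison by limma. The closest was ATRA against DAC, where it was higher by 0.58 (95% interval 0.20 to 0.97, limma adjusted p 0.0162), and it passed there without DAC+ATRA replicate 1 (limma adjusted p 0.0057), the low library of its group. DESeq2 called MAVS there (0.62, adjusted p 0.00551).

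EIF2AK2 encodes PKR, the kinase that halts translation on double-stranded RNA, and lies at chr2:37099210-37157522. It reached 699.9, 735 and 546 normalised counts untreated, 411, 392 and 512 with DAC, 618, 475 and 449.8 with ATRA, and 539, 509.9 and 522 with DAC+ATRA. All DAC libraries lay below all untreated ones, by a narrow margin between untreated replicate 3 and DAC replicate 3. EIF2AK2 fell with DAC by 0.59 (SE 0.15, limma adjusted p 0.00923), from 660 ± 100.2 to 438 ± 64.3. The change was -0.36 with ATRA and -0.32 with DAC+ATRA (limma adjusted p 0.0589 and 0.0851).

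The call for EIF2AK2 was the least stable of the 9 genes. It passed in 10 of 24 alternative fits, with limma adjusted p between 0.00104 and 0.0621. It was lost without untreated replicate 1 or 2 (0.0458 and 0.0621), DAC replicate 1 or 2 (0.0339 and 0.048), ATRA replicate 2 (0.0134) and DAC+ATRA replicate 1, 2 or 3 (0.0142, 0.0147 and 0.0154). Its direction was lower in all 24.

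ADAR encodes the editing enzyme that marks double-stranded RNA as self, and lies at chr1:154581695-154628013. Its normalised counts were 52.9, 61.7 and 58.3 untreated, 59.8, 70.6 and 61.0 with DAC, 90.5, 76.6 and 104 with ATRA, and 57.4, 83.3 and 79.6 with DAC+ATRA. The ATRA libraries lay above all untreated and all DAC libraries. The ATRA difference of 0.63 (95% interval 0.20 to 1.06) had a limma adjusted p of 0.021 and did not pass, while DESeq2 called it (adjusted p 0.0063).

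CGAS encodes cyclic GMP-AMP synthase, which makes the messenger that activates STING on cytosolic DNA, and lies at chr6:73413515-73452297. Its normalised counts were 1026, 977 and 855 untreated, 492, 453 and 699 with DAC, 639.7, 548 and 499.9 with ATRA, and 645, 517 and 516 with DAC+ATRA. All 9 treated libraries lay below all 3 untreated ones, and the treated groups overlapped one another.

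CGAS fell by 0.82 with DAC (SE 0.15, limma adjusted p 0.001). It fell by 0.76 with ATRA and fell by 0.77 with DAC+ATRA (limma adjusted p 5.51e-04 and 4.72e-04). These 3 comparisons share the untreated libraries. Means were 952 ± 87.9 untreated, 548 ± 132 with DAC, 562 ± 71.0 with ATRA and 559 ± 74.6 with DAC+ATRA. A fit of the 6 untreated and DAC libraries alone did not call CGAS (limma adjusted p 0.0213). The CGAS interaction was 0.81 (95% interval 0.36 to 1.26, limma adjusted p 0.0418), and it passed 0.01 only without DAC replicate 3, the highest DAC library (1.00, limma adjusted p 0.00116). DAC+ATRA differed from ATRA alone by -0.01 (interval -0.33 to 0.31).

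TBK1, the kinase that phosphorylates IRF3, lies at chr12:64452090-64502114 and had the fewest reads, 4 to 38 per library. Levels were 10.9, 11.4 and 16.3 normalised counts untreated, 5.09, 11.0 and 17.4 with DAC, 12.5, 28.3 and 18.4 with ATRA, and 25.2, 10.1 and 23.5 with DAC+ATRA. All groups overlapped and no comparison passed. The interval for DAC against untreated was -1.26 to 0.65, so a rise or fall of TBK1 within that range was not excluded.

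IRF3 lies at chr19:49659569-49665875. Its normalised counts were 157, 119 and 131 untreated, 98.0, 116 and 79.5 with DAC, 148, 176 and 160 with ATRA, and 105, 122 and 127 with DAC+ATRA. All DAC libraries lay below all untreated and all ATRA libraries. IRF3 was at -0.47 with DAC (95% interval -0.84 to -0.10, limma adjusted p 0.0808) and at 0.26 with ATRA (limma adjusted p 0.286), neither past the threshold. ATRA libraries exceeded DAC libraries by 0.73 (SE 0.18, limma adjusted p 0.00273). That call was lost without DAC replicate 3 (0.0109), ATRA replicate 2 (0.0175) and ATRA replicate 3, where the adjusted p rounded to 0.01.

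**Figure D2:**
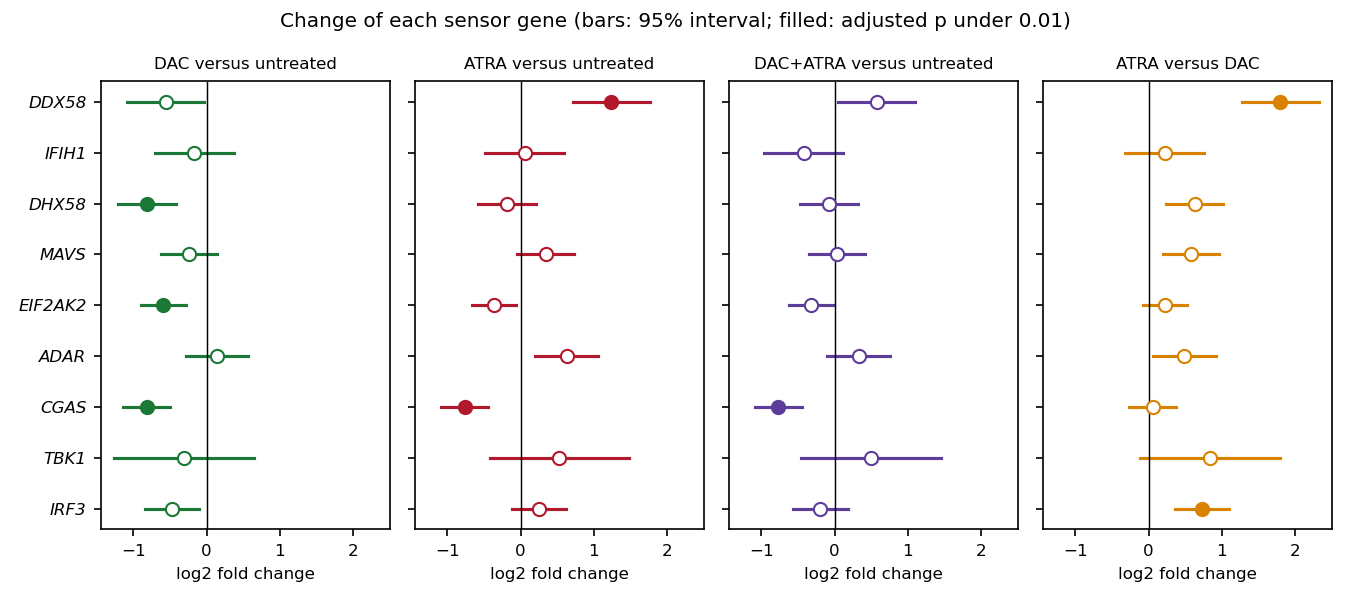
Log2 fold change (horizontal axis) of each sensor gene (rows) in 4 comparisons, with points for the limma estimate and bars for its 95% interval, filled where the adjusted p was under 0.01. With DAC 8 of 9 estimates lay below 0, whereas all 9 estimates of ATRA against DAC lay above 0. Both comparisons use the same DAC libraries.

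Set side by side, 8 of the 9 estimates were negative with DAC, and their median was -0.47 against 0.00 over all genes tested. For 5 of the 9 the DAC libraries all lay below the untreated ones, as they did for 14.2% of all genes. ADAR summed over its transcripts was the exception in direction, at 0.14 (95% interval -0.29 to 0.57). Its transcripts differed in direction. ADAR-202, of the longer isoform, was at -0.46 with DAC, and ADAR-201, of the shorter isoform, was at 0.22. Neither was called (limma adjusted p 0.385 and 0.719 in the fit of transcript rows). With ATRA the median of the 9 was 0.26 against -0.04 over all genes, and the groups did not overlap for 3 genes higher (24.1% of all genes) and 1 lower (26.6%). With DAC+ATRA the median was -0.07 against 0.00 over all genes.

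Of the comparisons between treated groups, DAC+ATRA against DAC called DDX58 and DHX58 higher, where 18.8% of all genes were called and 9.04% were called higher. ATRA against DAC called DDX58 and IRF3 higher (29.4% of all genes called, 13.2% higher), with a median of 0.58 over the 9 genes against -0.02 over all genes. For 5 of the 9 every ATRA library lay above every DAC library, as for 21.0% of all genes. Both of these comparisons share the DAC libraries with that of DAC against untreated cells. DAC+ATRA against ATRA called 0 of the 9 by limma (11.9% of all genes called), with 2 at an unadjusted p under 0.05, DDX58 and IRF3. DESeq2 and edgeR also called 0 there. The interaction called 0 of the 9 by limma (1.60% of all genes), with 3 at an unadjusted p under 0.05: DHX58, CGAS and EIF2AK2, all positive. DESeq2 and edgeR also called 0 interactions.

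The authors counted per transcript, and the genes differed in how many of their exonic bases lie in only 1 listed transcript. DDX58 had 135 such bases and 944 reads over all libraries, MAVS 215 bases and 1514 reads, TBK1 160 bases and 205 reads, and IRF3 355 bases and 1679 reads. DHX58, with a single listed transcript, had 2591 such bases, CGAS 2298 and EIF2AK2 6234. IFIH1 had 756 bases and 584 reads and ADAR 738 bases and 906 reads, fewer reads than DDX58, MAVS or IRF3. The DDX58 transcript RIGI-201 held 167 reads with 0 such bases, so these bases do not bound the reads. Where along a transcript its reads lie is not known here, and levels were compared between libraries for 1 gene, not between genes.

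**Figure D3:**
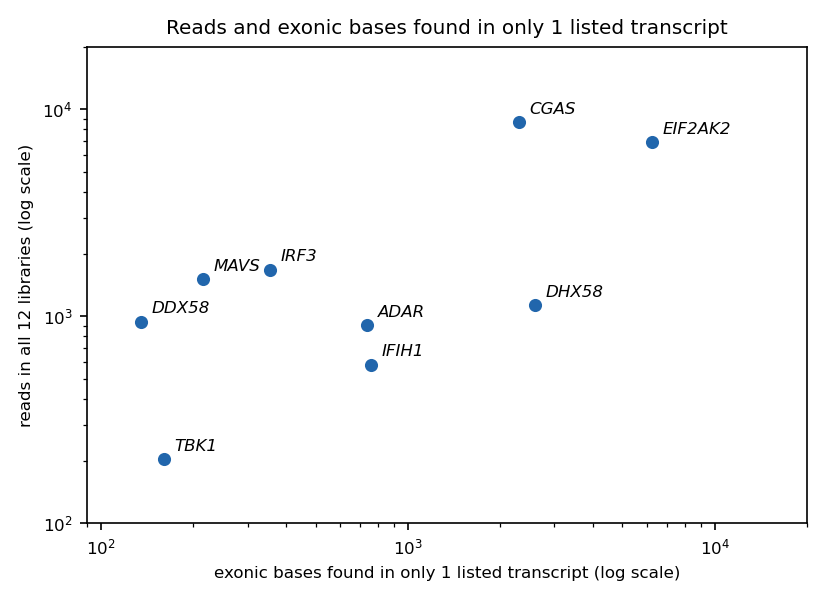
Reads summed over the 12 libraries (vertical log axis) against exonic bases that occur in only 1 listed transcript (horizontal log axis), 1 point per sensor gene. DDX58, TBK1, MAVS and IRF3 lie at 135 to 355 bases, ADAR at 738, IFIH1 at 756 and EIF2AK2 at 6234. ADAR and IFIH1 held fewer reads than DDX58, MAVS or IRF3.

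Of the 40 transcript rows, 16 passed the filter and entered a fit of 15040 rows. Against untreated cells 3 were called in at least 1 comparison: the DDX58 transcript RIGI-202 with ATRA (1.18, limma adjusted p 0.00316; 19.5% of rows called), the DHX58 transcript with DAC (-0.82, limma adjusted p 0.00796; 5.42% of rows) and CGAS-201 with all 3 treatments (21.8% of rows with DAC+ATRA). RIGI-202 encodes the full-length protein of 925 codons and held 777 of the 944 DDX58 reads. The other transcript, RIGI-201 with 880 codons, changed with ATRA by 1.40 (limma adjusted p 0.0242), from 6.81 ± 0.55 to 20.3 ± 6.33, and did not pass. DDX58 also shares exons on the same strand with an annotated readthrough gene.

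ADAR reads fell on 6 of its 8 rows. ADAR-202, with 1226 codons, encodes the longer isoform, which carries a domain for Z-form nucleic acid and is known to be interferon-inducible. Its levels were 23.1 ± 3.47 untreated, 16.7 ± 3.43 with DAC, 31.8 ± 5.07 with ATRA and 26.5 ± 2.36 with DAC+ATRA. ADAR-201, with 931 codons, encodes the shorter isoform, with levels of 28.3 ± 5.73, 33.6 ± 8.65, 37.0 ± 9.32 and 28.9 ± 5.65 in the same order. ADAR-202 was higher in ATRA than in DAC libraries by 0.90 (limma adjusted p 0.0244), which did not pass, and no ADAR row was called against untreated cells.

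The pathway around the sensors was read from 8 lists, of which 89 genes were tested. With DAC 15 of the 89 fell and 1 rose, with ATRA 15 rose and 11 fell, and with DAC+ATRA 14 rose and 13 fell. In DAC+ATRA against DAC, 23 were higher and 4 lower. That comparison shares the DAC libraries with that of DAC against untreated cells. The called share of the 89 was 18.0% with DAC, against 7.97% of all genes tested. It was 29.2% with ATRA (26.0% of all genes), 30.3% with DAC+ATRA (28.9%) and 30.3% in DAC+ATRA against DAC (18.8%). Of the 69 calls against untreated cells, 48 held whichever library was left out. The 21 that were lost without at least 1 library were TRIM25, OASL, HERC5, IFIT5 and ISG15 with DAC, EIF2AK4, IFNAR1, ISG15, MX2, PRKRA, STING1, TYK2 and UNC93B1 with ATRA, and CYLD, MRE11, NFKB1, OASL, PMAIP1, TKFC, TRAF6 and TYK2 with DAC+ATRA.

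**Figure D4:**
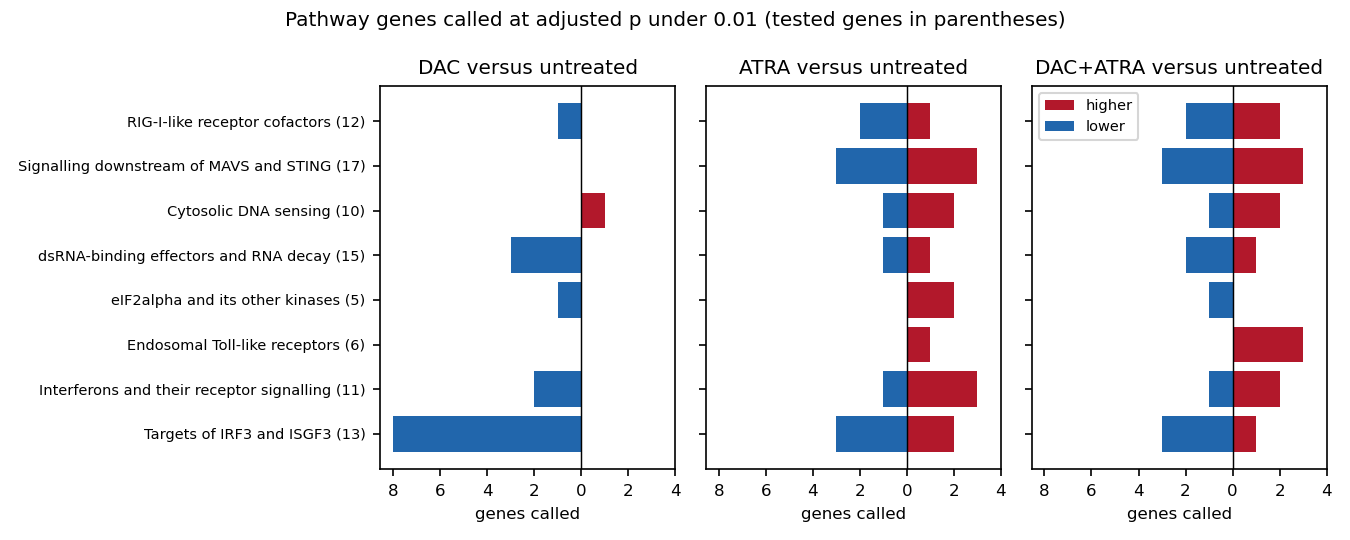
Genes called at an adjusted p under 0.01 (horizontal axis, higher to the right and lower to the left) in 8 lists around the sensors (rows, with the number tested), for each treatment against untreated cells. With DAC the targets of IRF3 and ISGF3 make up 8 of the 15 genes that fell.

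Among 12 cofactors of the RIG-I-like receptors, DAC lowered TRIM25, the ubiquitin ligase that activates RIG-I (-0.48, limma adjusted p 0.0087), a call lost in 14 of 24 alternative fits. ATRA raised CYLD, a deubiquitinase, by 0.93 (limma adjusted p 1.95e-05) and lowered PRKRA, an activator of PKR (-0.77, limma adjusted p 0.00191), and MEX3C, a ligase that modifies RIG-I (-0.57, limma adjusted p 3.42e-04). Against the same untreated libraries, DAC+ATRA raised CYLD by 0.63 and TKFC, which binds MDA5, by 0.71 (limma adjusted p 9.70e-04 and 0.0024), and lowered PRKRA and MEX3C (-0.92 and -0.73, limma adjusted p 3.71e-04 and 2.63e-05).

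Of 17 genes that signal below MAVS and STING, DAC changed 0 by limma, 6 had an unadjusted p under 0.05, and DESeq2 and edgeR called 0. ATRA raised NFKB1 by 1.37 (limma adjusted p 3.48e-04), IKBKE, a kinase closely related to TBK1, by 0.78 (limma adjusted p 0.00128) and CHUK by 0.56 (limma adjusted p 0.00103). It lowered AZI2, a TBK1 adaptor (-0.85, limma adjusted p 6.12e-05), TOMM70 (-0.74, limma adjusted p 4.82e-05) and FADD (-0.52, limma adjusted p 0.00108). With DAC+ATRA the changes called were 1.06 for NFKB1, 0.87 for IKBKE, 0.77 for CHUK, -0.81 for AZI2, -0.62 for TOMM70 and -0.61 for TRAF6 (limma adjusted p between 3.90e-05 and 0.00316). IRF7, TRAF3 and TRAF5 did not pass the filter on low values, and IRF7 and TRAF5 held 0 reads over all libraries. Whether such genes were silent or their reads could not be assigned to a transcript was not tested.

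Of 10 genes of cytosolic DNA sensing, SAMHD1, which degrades deoxynucleotides, rose from 181 ± 15.4 untreated to 328 ± 9.36 with DAC (0.86, limma adjusted p 8.66e-06). Its level was 2034 ± 93.8 in ATRA libraries and 2376 ± 21.9 in DAC+ATRA libraries (3.49 and 3.71, limma adjusted p 2.98e-15 and 1.62e-15). STING1, the adaptor that cGAS activates, rose by 0.57 with ATRA and by 0.79 with DAC+ATRA (limma adjusted p 0.00522 and 3.20e-04) and was at 0.24 with DAC (limma adjusted p 0.311). The ATRA call of STING1 was lost without untreated replicate 1 or 3 or any 1 ATRA library (limma adjusted p 0.0144 to 0.0315). RNASEH2A fell with ATRA (-0.89, limma adjusted p 2.00e-05) and MRE11 with DAC+ATRA (-0.59, limma adjusted p 0.0042). IFI16, ZBP1 and TREX1 did not pass the filter, and TREX1 likewise held 0 reads over all libraries.

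Among 15 effectors of double-stranded RNA and RNA decay, 2 of the 3 listed 2′-5′ oligoadenylate synthetase genes and the related OASL were called lower with DAC. OAS2 fell by 2.18 (limma adjusted p 4.10e-05), OAS3 fell by 2.00 (limma adjusted p 1.25e-06) and OASL fell by 3.44 (limma adjusted p 0.002). OASL held only 1, 6 and 9 reads in the DAC libraries, so its fitted change depends on the pseudocount. OAS1 was at -0.73 (limma adjusted p 0.022) and did not pass. OAS3 rose by 1.33 with ATRA and by 2.02 with DAC+ATRA (limma adjusted p 2.76e-05 and 1.56e-07), whereas OASL fell with all 3 treatments. Of the list around eIF2alpha, the substrate of PKR, PPP1R15A, which directs its dephosphorylation, fell with DAC (-0.95, limma adjusted p 1.36e-05), rose with ATRA (0.76, limma adjusted p 3.61e-05) and fell with DAC+ATRA (-0.73, limma adjusted p 6.13e-05). EIF2AK4, another eIF2alpha kinase, rose with ATRA by 0.39 (limma adjusted p 0.00744). That call was lost without any 1 untreated or ATRA library or DAC+ATRA replicate 2 (limma adjusted p 0.0119 to 0.0498).

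Endosomal Toll-like receptors and their adaptors, 6 of which were tested, had 0 genes called with DAC by limma, with 1 at an unadjusted p under 0.05 and 1 called by DESeq2 and 0 by edgeR. TLR8 was at 6.59 ± 2.50 normalised counts untreated (SD, n = 3), 27.7 ± 2.03 with DAC, 2.03 ± 1.84 with ATRA and 22.7 ± 14.9 with DAC+ATRA. It held 6, 7 and 15 reads untreated and 20, 18 and 27 with DAC. UNC93B1, the chaperone of these receptors, rose by 0.63 with ATRA (limma adjusted p 0.00217), and IRAK1, IRAK4 and UNC93B1 rose with DAC+ATRA by 1.46, 1.06 and 0.68 (limma adjusted p 3.23e-04, 8.36e-04 and 0.00112). TLR3, TLR9 and MYD88 did not pass the filter, and MYD88 likewise held 0 reads over all libraries.

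IFNB1, the interferon gene downstream of IRF3, held 13, 8 and 13 reads in untreated libraries 1 to 3, or 10.1, 6.49 and 8.15 normalised counts. It held 0, 1 and 0 reads with DAC and 0 reads in each of the 6 ATRA and DAC+ATRA libraries. A count of 0 allows up to 3 reads, which correspond to between 2.23 and 4.20 normalised counts in those 6 libraries. IFNB1 thus had reads in all 3 untreated libraries and in 1 of 9 treated ones, but it did not pass the filter and was not tested, nor were IFNL1, IFNK and IFNE.

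Of 11 genes of interferon receptor signalling, DAC lowered USP18, an inhibitor of that receptor (-2.31, limma adjusted p 7.29e-06), and IRF9, a subunit of ISGF3 (-1.40, limma adjusted p 6.92e-05). ATRA raised IFNAR2 by 2.03 (limma adjusted p 4.83e-05), TYK2 by 0.87 (limma adjusted p 0.00111) and IFNAR1 by 0.43 (limma adjusted p 0.00317), and lowered IFNLR1 (-2.71, limma adjusted p 7.61e-05). In DAC+ATRA cells IFNAR2 rose by 2.23 and TYK2 rose by 0.68, and IFNLR1 fell by 2.43 (limma adjusted p 1.73e-05, 0.00711 and 2.35e-04).

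Of 13 targets of IRF3 and ISGF3, DAC lowered 8 (3.67% of all genes were called lower) and raised none, with a median of -1.35 over the 13 against 0.00 over all genes. The largest changes among the 8 were -4.80 for IFI44L, -3.28 for IFI44 and -2.77 for IFIT3 (limma adjusted p 1.56e-05, 2.12e-06 and 1.56e-06). IFI44L held only 0, 0 and 5 reads in the DAC libraries, so its fitted change depends on the pseudocount. In DAC+ATRA against DAC 8 were higher (9.04% of all genes) and none lower, with a median of 1.27. The same DAC libraries enter both comparisons, so this rise and the fall with DAC are not independent results. ATRA raised PMAIP1 by 1.35 and MX2 by 0.54 (limma adjusted p 1.25e-04 and 0.00196), and lowered IFI44, HERC5 and ISG15 (-2.56, -2.55 and -0.82, limma adjusted p 7.68e-06, 2.23e-06 and 0.00288). With DAC+ATRA, MX2 rose by 0.85, and IFI44, HERC5 and PMAIP1 fell (-1.76, -1.64 and -0.89, limma adjusted p 1.90e-05, 4.33e-04, 3.20e-04 and 0.00472).

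The genes most like each sensor that was called against untreated cells were found by Pearson r of log2 levels over the 12 libraries, which share their groups and scaling, and are given as a description. Closest to DDX58 were LPAR1 (0.989), TBCEL (0.980) and RHOBTB3 (0.967). RHOBTB3 went from 656 ± 83.7 untreated to 335 ± 101 with DAC, 2083 ± 145 with ATRA and 1124 ± 119 with DAC+ATRA. Closest to DHX58 were IFI44L (0.925), APOL6 (0.915) and ALOX5AP (0.900). APOL6 was at 2470 ± 234, 1320 ± 108, 2381 ± 50.4 and 2406 ± 118 in the order untreated, DAC, ATRA and DAC+ATRA, so that its low group was DAC alone. Closest to EIF2AK2 were MGAT2 (0.948), TYW5 (0.905) and HELB (0.879), and closest to CGAS were RABGGTB (0.966), SGTB (0.944) and FLT3 (0.943). FLT3, the receptor kinase of the leukemia line, was at 14027 ± 196 untreated, 8281 ± 1117 with DAC, 8243 ± 666 with ATRA and 7328 ± 306 with DAC+ATRA.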

How the data were processed

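RNA was sequenced from 12 MOLM-13 libraries (untreated, DAC, ATRA, DAC+ATRA, 3 each). Per the submitters' processing notes and methods, reads were aligned to hg38 with STAR, counted with HTSeq and normalised with DESeq2, and versions are not given in the sources used here. The deposited values are a normalised signal per Ensembl transcript, for which the authors divided read counts by 1 size factor per library. They are called normalised counts. In every library 100% of values were whole multiples of 1 step (tolerance 0.01 read), so reads were recovered by division.

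Rows were summed per symbol. Biotypes, coordinates and codons came from GENCODE release 44, which held 88.9% of the rows. Whether counting used strand is not stated, and CGAS, EIF2AK2, IRF3 and TBK1 overlap exons on the opposite strand. Intervals and floors from reads cover counting error only.

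Comparisons were tested with limma 3.58.1 (R 4.3.3; lmFit and eBayes with trend) on log2(normalised count + 1), with all 12 libraries in 1 fit and a coefficient per group. A fold change on this scale understates that of low genes. The 10642 protein-coding genes that reached 10 normalised counts in 3 or more libraries were tested, p-values were adjusted by Benjamini-Hochberg over all of them, and genes were called under 0.01. The test was tried on simulated data. Alternatives used DESeq2 1.42.0 and edgeR 4.0.16 on recovered reads, other scalings, pseudocounts, filters and thresholds, the compared groups alone, a replicate block and each library left out.

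The 9 genes and all lists were chosen with earlier results of these data known. Named genes were the 9, IFNB1, up to 3 called rises and 3 called falls per list and treatment against untreated, and the 3 genes most like each sensor called there. TLR8 was named outside this rule. A list gene that this rule names is not reported here.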

Additional observations from a re-analysis of the deposited data

Results flagged for a closer look

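For 10 of the 89 genes tested in the lists around the sensors (11.2%, against 1.60% of all genes), the effect of DAC differed between cells with and without ATRA (interaction, limma, adjusted over all 10642 genes). The interaction on the log2 scale was 5.17 for IFI44L (adjusted p 0.00109), 4.08 for IFI44 (4.7e-05), 2.74 for IFIT3 (4.00e-04), 2.66 for RSAD2 (3.25e-04), 2.27 for HERC5 (0.00496), 2.05 for ISG15 (2.01e-04) and 2.00 for IFIT5 (0.00262). Among the effectors it was 2.72 for OAS2 (6.27e-04) and 2.70 for OAS3 (1.21e-05), and in receptor signalling 1.92 for USP18 (0.00597). All 10 were positive, so that DAC+ATRA lay above the sum of both single changes. The interaction includes the untreated libraries, so if the labels hold, time and treatment cannot be told apart in it. IFI44L held 0, 0 and 5 reads in the DAC libraries, so the size of its interaction depends on the pseudocount. Reads there were also few for other genes, such as IFI44 (6, 6 and 19), OAS2 (10, 7 and 10) and IFIT3 (10, 13 and 8). The groups of 3 libraries were too small to search for single outlying libraries.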

How the results depend on the processing

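Of 63 results of a sensor gene in a comparison, 10 were called. None of the 10 changed direction in 24 alternative fits, and 4 were called in all 24: DDX58 and CGAS with ATRA, CGAS with DAC+ATRA, and DDX58 in ATRA against DAC. Of the 53 that were not called, 5 were called in some alternative and 18 changed sign in at least 1. The number of sensor genes called with DAC, and that in DAC+ATRA against DAC, was 0 when only the compared groups entered the fit, which leaves fewer libraries to estimate the spread. In ATRA against DAC it was 4 with DESeq2, 4 at an adjusted p under 0.05, 1 with only the compared groups and 1 with the largest transcript row of each gene, an alternative chosen after seeing the data. The interaction count was 1 at an adjusted p under 0.05. Genes called in a list against untreated cells were 12 for signalling below MAVS and STING, 7 for DNA sensing and 8 for the double-stranded RNA effectors at an adjusted p under 0.05, 7 for those effectors with only the compared groups, and 1 for the eIF2alpha list with total-count scaling. The cause of these shifts was not tested.

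With 1 library left out, the count ranged from 1 to 4 with DAC, 2 to 2 with ATRA, 1 to 1 with DAC+ATRA, 1 to 2 in DAC+ATRA against DAC, 0 to 0 in DAC+ATRA against ATRA, 1 to 3 in ATRA against DAC, 0 to 1 in the interaction and 1 to 4 for transcript rows. It ranged from 3 to 7 for the cofactors, 6 to 8 for signalling, 3 to 5 for DNA sensing, 4 to 6 for effectors, 1 to 2 for the eIF2alpha list, 3 to 4 for Toll-like receptors, 4 to 8 for interferon signalling and 7 to 9 for the targets of IRF3 and ISGF3.

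Replicate numbers did not pair the libraries. Deviations of same-numbered libraries correlated at -0.263 to 0.114 over 18 pairs, 2 of them over 0.1, and 1 of 12 libraries correlated best with its own number. With the replicate number as a block EIF2AK2 was not called with DAC (limma adjusted p 0.0158), the eIF2alpha list had 1 called gene, and the counts of called sensor genes in the other comparisons stayed within 1.5 times. TBK1 and IFIH1 held the fewest reads of the sensor genes, 205 and 584 over all libraries. Whether depth is what limits their results was not tested.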
